A study of Mus musculus with 12 samples.

Results

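The mouse mitochondrial genome encodes 13 messenger RNAs, and 7 of them carried enough reads to be compared here: mt-Nd1, mt-Nd2, mt-Nd4, mt-Nd5, mt-Nd6, mt-Co1 and mt-Cytb. They were chosen by name from the 53379 gene rows of the count tables, compared over 4 groups of mice and set against 80 nuclear genes for subunits of the same respiratory complexes. The tissue was perigonadal white fat, a visceral depot, taken from C57BL/6 mice on standard chow at an age of 9 weeks. The groups were ko mice given CL, ko mice given saline, wt littermates given CL and wt littermates given saline. The ko mice lack Cdk7, the kinase within the transcription factor TFIIH, in adipose tissue, and the labels call them aKO in one place and ko in another. Injections ran for 7 days and tissue was taken at zeitgeber time 9. CL is an abbreviation that the labels do not expand. Each group had 3 libraries, each library pooled the RNA of 2 mice, and 6 mice therefore stood behind a group. The sources used here give neither the Cre driver, the dose nor the sex of the mice, nor whether libraries were made by poly-A selection or by depletion of ribosomal RNA.

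Mitochondrial DNA is transcribed from both strands as long precursors, which are cut at the transfer RNAs that lie between the other genes. One strand gives both ribosomal RNAs and all messengers except mt-Nd6, which is read from the other strand. The proteins are the innermost subunits of complexes I, III, IV and V, which are completed by nuclear subunits imported from the cytosol. In white fat, mitochondria burn fatty acids and supply building blocks for fat synthesis, and brown-like adipocytes are known for their many mitochondria.

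The 7 genes lie on the mitochondrial chromosome of build GRCm38. Those of complex I are mt-Nd1 (ENSMUSG00000064341, chrM:2751-3707), mt-Nd2 (ENSMUSG00000064345, chrM:3914-4951), mt-Nd4 (ENSMUSG00000064363, chrM:10167-11544) and mt-Nd5 (ENSMUSG00000064367, chrM:11742-13565) on the plus strand, and mt-Nd6 (ENSMUSG00000064368, chrM:13552-14070) on the minus strand. mt-Nd6 overlaps the end of mt-Nd5 at chrM:13552-13565, where only counting by strand tells them apart, and the files were counted by strand. mt-Cytb of complex III (ENSMUSG00000064370, chrM:14145-15288) and mt-Co1 of complex IV (ENSMUSG00000064351, chrM:5328-6872) are on the plus strand. The genes have no introns and almost no untranslated sequence. The first 30 bases of each gene are shown 5′ to 3′ on the coding strand, from the GENCODE M21 transcripts, because the first codon, in capitals, shows how the mitochondrial code departs from the nuclear one.
mt-Nd1: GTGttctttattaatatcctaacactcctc
mt-Nd2: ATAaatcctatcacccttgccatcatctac
mt-Nd4: ATGctaaaaattattcttccctcactaatg
mt-Nd5: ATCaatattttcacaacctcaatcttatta
mt-Nd6: ATGaataattatatttttgttttaagttca
mt-Cytb: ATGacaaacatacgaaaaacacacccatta
mt-Co1: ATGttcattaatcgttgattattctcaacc
Of the 7, 4 begin with ATG, and mt-Nd1, mt-Nd2 and mt-Nd5 begin with GTG, ATA and ATC. The annotated mt-Nd4 and mt-Cytb end on a single T after the last whole codon, shown in capitals at the end of their last 30 bases (chrM:11515-11544 and chrM:15259-15288).
mt-Nd4, last bases: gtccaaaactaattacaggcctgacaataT
mt-Cytb, last bases: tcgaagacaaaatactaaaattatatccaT
Such a T becomes a stop codon only once adenines are added to it, which mammalian mitochondria do to most of their messengers.

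The other 6 messenger rows were nearly empty. Over all 12 libraries together mt-Nd3 had 38 counts, mt-Atp6 had 2, mt-Co2 and mt-Co3 had 1 each, and mt-Nd4l and mt-Atp8 had 0. Against these, the least counted of the 7, mt-Nd6, had 4196 counts in total and the most counted, mt-Co1, had 7370697. A stretch of chromosome 1 on the minus strand between positions 24611535 and 24616197 carries near-identical nuclear copies of mitochondrial genes, and the HTSeq files put reads with more than 1 alignment on a separate line. mt-Co2, mt-Atp6 and mt-Nd4l were identical to the copies Gm28661, Gm10925 and Gm10222 over 681 of 684, 678 of 681 and 294 of 297 bases. mt-Co3 was identical to Gm28437 over 783 of 784 bases. mt-Nd3 differed from Gm28438 at 1 of 345 compared bases, T3C, counted from 1 at the 5′ end of mt-Nd3. mt-Atp8 also had 0 counts and had no copy of at least 90% identity among annotated transcripts, the only sequences searched. The gene, at chrM:7766-7969, lies after mt-Co2 and runs into mt-Atp6. Genome sequence between the copies of those genes, from the end of Gm10925 at chr1:24614651 to the start of Gm28661 at chr1:24614885, was not searched.

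The same stretch reaches into 2 of the 7 compared genes. mt-Nd4 was identical to Gm28439 over its first 876 of 1378 bases, and mt-Co1 differed from Gm29216 at 1 of 483 compared bases, A1066T, counted from the 5′ end of mt-Co1. Of all 100-base windows of a gene, 60.8% of those of mt-Nd4, 30.8% of those of mt-Co1 and 3.19% of those of mt-Nd2 also occurred exactly in another annotated transcript. For mt-Nd1, mt-Nd5, mt-Nd6 and mt-Cytb that share was 0, and for the near-empty rows other than mt-Atp8 it was 97.6% to 99.9%. The read length is not given, and shares were larger for 50-base windows. They were then 62.2% for mt-Nd4, 51.1% for mt-Co1, 8.19% for mt-Nd2 and 7.61% for mt-Nd5, and still 0 for mt-Nd1, mt-Nd6 and mt-Cytb. The pairs below show both single-base differences, in capitals, and the point where mt-Nd4 leaves its copy, with the bases past the end of Gm28439 in capitals. The mitochondrial stretches are chrM:9459-9491, chrM:6390-6423 and chrM:11013-11072, and the copies are chr1:24613087-24613119 and chr1:24616155-24616188 on the minus strand.
mt-Nd3: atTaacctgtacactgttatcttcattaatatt
Gm28438: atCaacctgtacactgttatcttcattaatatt
mt-Co1: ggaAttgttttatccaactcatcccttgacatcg
Gm29216: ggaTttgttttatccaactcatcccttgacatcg
mt-Nd4 at the end of Gm28439: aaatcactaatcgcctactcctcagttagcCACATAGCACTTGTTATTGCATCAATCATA
The copies themselves held few reads, at 915 counts in total for Gm29216 and 0 to 7 for the other copies in that stretch. Levels of mt-Nd4 and mt-Co1, and any level of the 6 near-empty genes, are therefore uncertain, while a ratio between groups compares the same countable bases in every library.

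Libraries held 21892817 to 27985019 gene counts with 20239 to 22121 genes detected, and 16554 genes were tested. Groups were taken from the titles, since the genotype characteristic contradicts 6 of the 12 titles. Cdk7 was at 18.1 to 23.6 CPM (counts per 1000000 after scaling by TMM, a trimmed mean of the log ratios of genes) in ko CL, 11.02 to 11.7 in ko saline, 30.4 to 35.4 in wt CL and 29.3 to 29.98 in wt saline, so the ko libraries lay below the wt libraries under both treatments. All 12 adipocyte markers were detected in every group. Their summed level was 8315 to 12552 CPM in ko CL, 17028 to 18280 in ko saline, 30324 to 32905 in wt CL and 25064 to 27671 in wt saline. The sum of 15 macrophage markers, among them Adgre1, was 12041 to 17338 CPM in ko CL, 1646 to 1737 in ko saline, 930.3 to 1135 in wt CL and 1678 to 1771 in wt saline. Some libraries stood apart within their group in markers of other cells. The sum of 6 B cell markers reached 2632 CPM in ko CL 2, against 164.4 to 900.0 CPM in the other 11 libraries. That of 10 motile cilia and duct epithelium markers was 12.9 to 24.0 CPM in ko CL, 117.8 to 171.4 in ko saline, 11.4 to 11.9 in wt CL, where 2 of the 10 were at 0, and 9.37 to 64.7 in wt saline, with wt saline 1 highest. Results were also computed without ko CL 2, wt saline 1 and wt saline 2 together.

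The 7 messengers together took 3.46, 4.06 and 4.30% of the gene counts in the ko CL libraries, 5.84, 4.77 and 5.56% in ko saline, 9.93, 9.36 and 10.2% in wt CL and 4.38, 4.93 and 4.84% in wt saline. The wt CL libraries were above all others, and the ko CL libraries were below all others. Within a group the order of the genes, in CPM per kb of gene length, began with mt-Co1, mt-Cytb and mt-Nd1. In wt saline these averaged 12026 ± 1261, 11038 ± 708 and 4748 ± 259 CPM per kb, followed by mt-Nd5 at 2719 ± 109, mt-Nd4 at 2467 ± 185, mt-Nd2 at 2300 ± 211 and mt-Nd6 at 16.9 ± 1.18 (SD, n = 3). mt-Co1 and mt-Cytb overlapped between libraries in ko saline and wt saline, and did not overlap in ko CL and wt CL. mt-Nd5, mt-Nd2 and mt-Nd4 overlapped with their neighbours in every group. Per kb of the 100-base windows that mt-Nd4 does not share with another transcript, its level in ko saline was 6628 CPM instead of 2415 CPM per kb of gene length. The place of mt-Nd4 in the order thus rests on how the shared bases are treated. The most abundant nuclear respiratory gene per kb of exon, Atp5b, a catalytic subunit of complex V, reached 438.0 ± 84.2 CPM per kb in ko CL, 430.4 ± 26.6 in ko saline, 1128 ± 25.9 in wt CL and 448.4 ± 24.6 in wt saline.

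**Figure D1:**
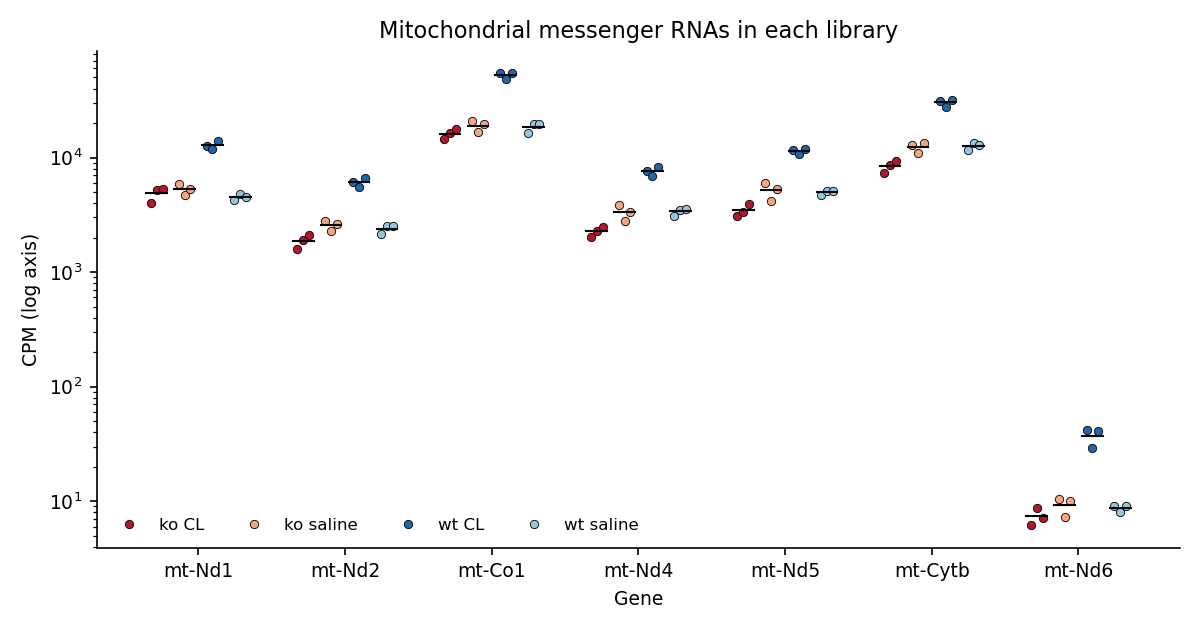
Level of each of the 7 messengers in CPM on a log axis for ko CL, ko saline, wt CL and wt saline. Dots are the 3 libraries of a group and the line is their mean. The wt CL libraries lie above all others for every messenger, and mt-Nd6 lies far below the other 6.

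Of the complex I genes, mt-Nd1 encodes the subunit at the foot of the membrane arm beside the ubiquinone site. mt-Nd1 was at 4038, 5205 and 5331 CPM in ko CL and 5838, 4670 and 5361 CPM in ko saline. It was at 12522, 11941 and 13829 CPM in wt CL and 4292, 4788 and 4552 CPM in wt saline. The wt CL libraries stood far above the rest, and the ko CL, ko saline and wt saline libraries overlapped.

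mt-Nd2, mt-Nd4 and mt-Nd5 encode the antiporter-like subunits of the membrane arm, which move protons. mt-Nd2 was at 1594, 1895 and 2087 CPM in ko CL and 2793, 2265 and 2633 CPM in ko saline, against 6137, 5503 and 6654 CPM in wt CL and 2135, 2525 and 2501 CPM in wt saline. mt-Nd4 was at 2036, 2268 and 2496 CPM in ko CL and 3828, 2775 and 3379 CPM in ko saline, against 7628, 6955 and 8245 CPM in wt CL and 3111, 3500 and 3589 CPM in wt saline. mt-Nd5 was at 3103, 3340 and 3966 CPM in ko CL and 5996, 4198 and 5272 CPM in ko saline, against 11618, 10697 and 11979 CPM in wt CL and 4731, 5054 and 5096 CPM in wt saline. For all 3 genes the ko CL libraries lay below every library of the other groups and the wt CL libraries above every one, while ko saline and wt saline overlapped. For mt-Nd2 the margin was small, at 2087 CPM in ko CL against 2135 CPM in wt saline. How many of all genes had a group apart from all the others was not counted, here or for the other messengers. The second ko saline library was the lowest of its group for each of the 3.

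mt-Nd6, a small membrane-arm subunit and the only messenger of its strand, was at 6.17, 8.78 and 7.20 CPM in ko CL and 10.6, 7.25 and 10.1 CPM in ko saline. It was at 41.6, 29.3 and 40.6 CPM in wt CL and 9.15, 8.09 and 9.15 CPM in wt saline. These levels rest on 167 to 798 counts per library, against 46009 to 1065275 counts for the other 6. Whether the level of mt-Nd6 beside the other 6 depends on library preparation, which the sources do not state, was not tested. ko CL and ko saline overlapped, and every wt CL library was above all others.

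mt-Cytb encodes cytochrome b, the subunit of complex III that carries both of its quinone sites. It was at 7354, 8537 and 9263 CPM in ko CL and 12973, 10898 and 13274 CPM in ko saline, against 31051, 27614 and 32085 CPM in wt CL and 11740, 13325 and 12818 CPM in wt saline. mt-Co1 encodes the catalytic subunit of complex IV, where oxygen is reduced, and was at 14477, 16416 and 17614 CPM in ko CL and 20981, 16612 and 19483 CPM in ko saline. In wt it was at 54307, 48549 and 54224 CPM under CL and 16332, 19767 and 19641 CPM under saline. mt-Cytb separated ko CL from ko saline without overlap, whereas for mt-Co1 these groups overlapped through the second ko saline library.

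In ko fat 4 of the 7 messengers fell under CL. mt-Nd5 fell by 0.57 ± 0.13 on the log2 scale (SE, adjusted p = 0.00252), mt-Cytb by 0.56 ± 0.12 (adjusted p = 0.00153), mt-Nd4 by 0.55 ± 0.13 (adjusted p = 0.00239) and mt-Nd2 by 0.46 ± 0.12 (adjusted p = 0.00631), all by the edgeR quasi-likelihood test, with p-values adjusted over all genes by the Benjamini-Hochberg method. These are levels 1.38 to 1.49 times lower. mt-Nd6 had a log2 difference of -0.33 ± 0.18 (adjusted p = 0.128), mt-Co1 of -0.23 ± 0.13 (adjusted p = 0.133) and mt-Nd1 of -0.12 ± 0.12 (adjusted p = 0.42). The median of the 7 was -0.46, beside -0.01 over all genes tested, and 27.5% of all genes were called lower in this comparison. Of all genes, 31.2% had ko CL libraries wholly below ko saline, as these 4 did. The 4 kept their call without any single library, whereas mt-Nd6 was called lower without ko CL 2 (-0.51, adjusted p = 0.0401) or ko saline 2 (-0.51, adjusted p = 0.0270). mt-Co1 was called lower without ko saline 2 (-0.35, adjusted p = 0.0430), with DESeq2 (-0.24, adjusted p = 0.0478) and with library size alone as the scale (-0.32, adjusted p = 0.0281). In the same comparison 10 of the 12 adipocyte markers fell and all 15 macrophage markers rose, beside 27.2% of all genes called higher. The part of this shift in the messengers was not tested. In whole tissue, fewer cells of a type and less RNA per cell cannot be told apart.

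In wt fat all 7 rose under CL, and 19.6% of all genes were called higher. mt-Nd6 rose 4.22-fold (log2 2.08 ± 0.17, adjusted p = 3.57e-06), mt-Co1 2.82-fold and mt-Nd1 2.81-fold. mt-Nd2 rose 2.55-fold, mt-Cytb 2.40-fold, mt-Nd5 2.30-fold and mt-Nd4 2.24-fold, with adjusted p between 3.57e-06 and 2.39e-05 over the 7. The wt CL and wt saline libraries did not overlap for any of them, as was the case in that direction for 26.6% of all genes. Of the adipocyte markers 2 rose and 2 fell here, and 10 of the 15 macrophage markers fell. Of all genes, 17.1% were called lower. The 8 markers of thermogenic adipocytes all rose, to a summed 456.9 to 531.7 CPM in wt CL, against 28.98 to 43.8 in wt saline. In ko fat that sum was 48.9 to 162.3 CPM under CL and 17.3 to 21.3 under saline. There 6 of the 8 rose, beside 27.2% of all genes called higher.

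The response to CL differed between genotypes for each of the 7, and 23.6% of all genes were called lower by this test of the ko response minus the wt response. The difference was -2.41 ± 0.24 for mt-Nd6 (SE, adjusted p = 6.77e-06), -1.82 ± 0.17 for mt-Cytb (adjusted p = 3.42e-06), -1.82 ± 0.18 for mt-Nd2 (adjusted p = 4.48e-06) and -1.78 ± 0.19 for mt-Nd5 (adjusted p = 8.83e-06). It was -1.73 ± 0.18 for mt-Co1 (adjusted p = 8.21e-06), -1.72 ± 0.18 for mt-Nd4 (adjusted p = 8.42e-06) and -1.61 ± 0.18 for mt-Nd1 (adjusted p = 1.23e-05). The median was -1.78, beside -0.03 over all genes. These tests use all 4 groups, and the values of each comparison share libraries with the others.

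ko CL set against wt CL gave lower levels for all 7, where 29.3% of all genes were called lower. The ko CL level was 5.03 times lower for mt-Nd6, 3.61 times for mt-Cytb, 3.36 times for mt-Nd4 and 3.29 times for mt-Nd5. It was 3.28 times lower for mt-Nd2, 3.24 times for mt-Co1 and 2.63 times for mt-Nd1, with adjusted p from 6.02e-08 to 8.8e-07. No ko CL library reached a wt CL library for any of the 7, a separation that 32.7% of all genes had in that direction. All 12 adipocyte markers were also lower and all 15 macrophage markers higher in ko CL than in wt CL, where 27.6% of all genes were called higher.

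Under saline none of the 7 was called between ko and wt, and 14.4% of all genes were called in either direction. The log2 differences of ko saline from wt saline lay between -0.03 and 0.22 with SEs of 0.12 to 0.17. The largest was that of mt-Nd1 (0.22, adjusted p = 0.261). None had an unadjusted p under 0.05, none was called by DESeq2, and all 7 overlapped between the groups. With library size alone as the scale mt-Nd1 was called higher in ko saline (0.37, adjusted p = 0.0305). Of the adipocyte markers 8 of 12 fell in ko saline, where 6.45% of all genes were called lower. None of the macrophage markers was called.

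**Figure D2:**
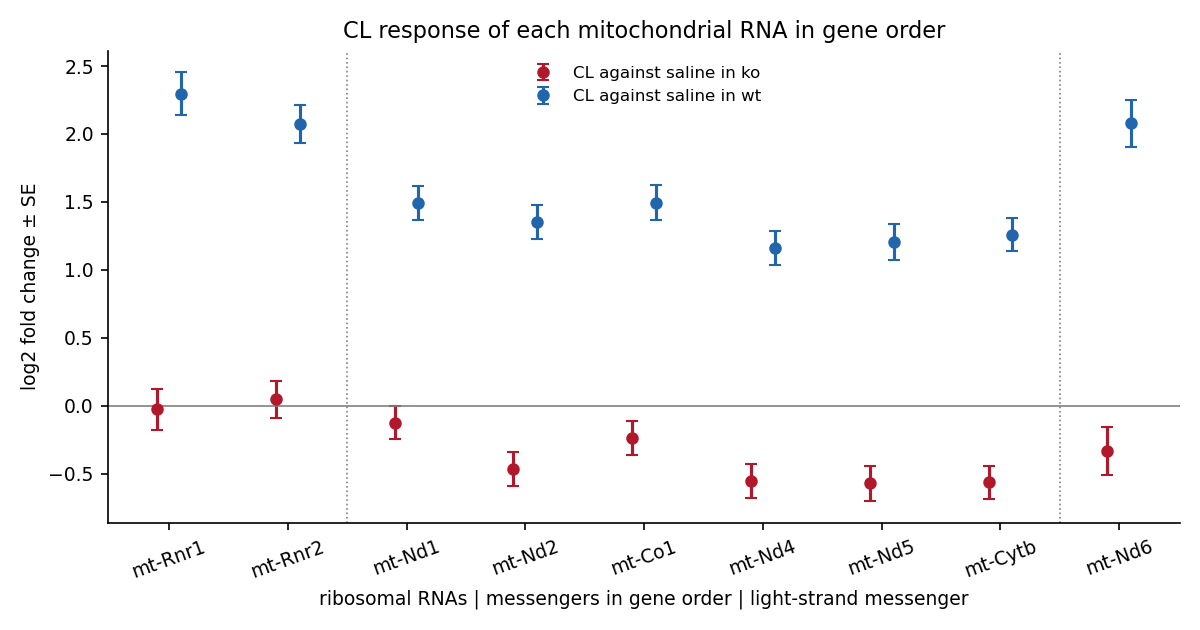
Log2 fold change of CL against saline in ko and in wt, with its standard error, for the mitochondrial ribosomal RNAs and messengers of the plus strand in gene order and for mt-Nd6 of the minus strand. In wt the fold changes fall between 1.16 and 2.30, and in ko between -0.57 and 0.05.

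The 80 nuclear respiratory genes, of which 78 passed the filter, were the yardstick for the mitochondrial messengers. Ndufa13 and Cox4i1 had 0 counts in every library and were not tested. In ko fat 15 of the 78 rose and 4 fell under CL, with a median log2 change of 0.08, where 27.2% of all genes were called higher and 27.5% lower. Both counts rested on single libraries. Those that rose numbered 27 without ko CL 1 and 6 or 7 without ko CL 2, ko CL 3, ko saline 1 or ko saline 2, and those that fell numbered 2 without ko CL 1 and 9 without ko CL 2. With library size alone 9 were higher and 10 lower. In wt fat 71 rose and none fell, with a median of 0.89, where 19.6% of all genes were called higher and 17.1% lower. Under CL 74 were lower and 1 was higher in ko than in wt, where 29.3% of all genes were called lower and 27.6% higher. Under saline 1 was higher and 1 lower, where 7.99% of all genes were called higher and 6.45% lower.

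In wt 33 of 35 genes of complex I rose, all 4 of complex II, all 9 of complex III, 12 of 15 of complex IV and 13 of 15 of complex V, with median log2 changes of 0.82, 1.12, 1.15, 1.08 and 0.74. In ko the medians of the same complexes were 0.01, 0.13, 0.26, 0.14 and 0.07. In ko 2 genes of complex I, 2 of complex II, 2 of complex III, 6 of complex IV and 3 of complex V were called higher. Called lower were 2 of complex I, 1 of complex IV and 1 of complex V. Over the alternatives the numbers called higher ranged over 0 to 6, 1 to 2, 1 to 6, 3 to 7 and 1 to 6 for complexes I to V. Ndufb3, an accessory subunit of complex I, had the opposite sign in the genotypes. It averaged 86.5 ± 7.28 CPM in ko CL and 149.5 ± 7.44 CPM in ko saline, against 151.4 ± 6.72 CPM in wt CL and 91.1 ± 6.61 CPM in wt saline (SD, n = 3), and the response in ko was lower by 1.52 ± 0.11 on the log2 scale (adjusted p = 3.68e-07). Atp5j, a stalk subunit of complex V, also fell in ko, by 0.30 ± 0.07 (adjusted p = 0.00385). Sdhb, the iron-sulfur subunit of complex II, rose by 0.47 ± 0.11 in ko (adjusted p = 0.00291), Uqcrc1, a core subunit of complex III, by 0.51 ± 0.13 (adjusted p = 0.00471), and Atp5g1, which encodes the ring subunit of complex V, by 0.52 ± 0.11 (adjusted p = 0.00155). Cox7a1, a complex IV subunit of muscle and brown fat, rose in both genotypes. It averaged 14.3 ± 7.0 CPM in ko CL and 2.26 CPM in ko saline, against 31.9 CPM in wt CL and 2.73 CPM in wt saline. Uqcrfs1, the Rieske iron-sulfur subunit of complex III, rose by 1.58 ± 0.12 in wt (adjusted p = 1.91e-06) and its response differed between genotypes by -1.32 ± 0.17.

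**Figure D3:**
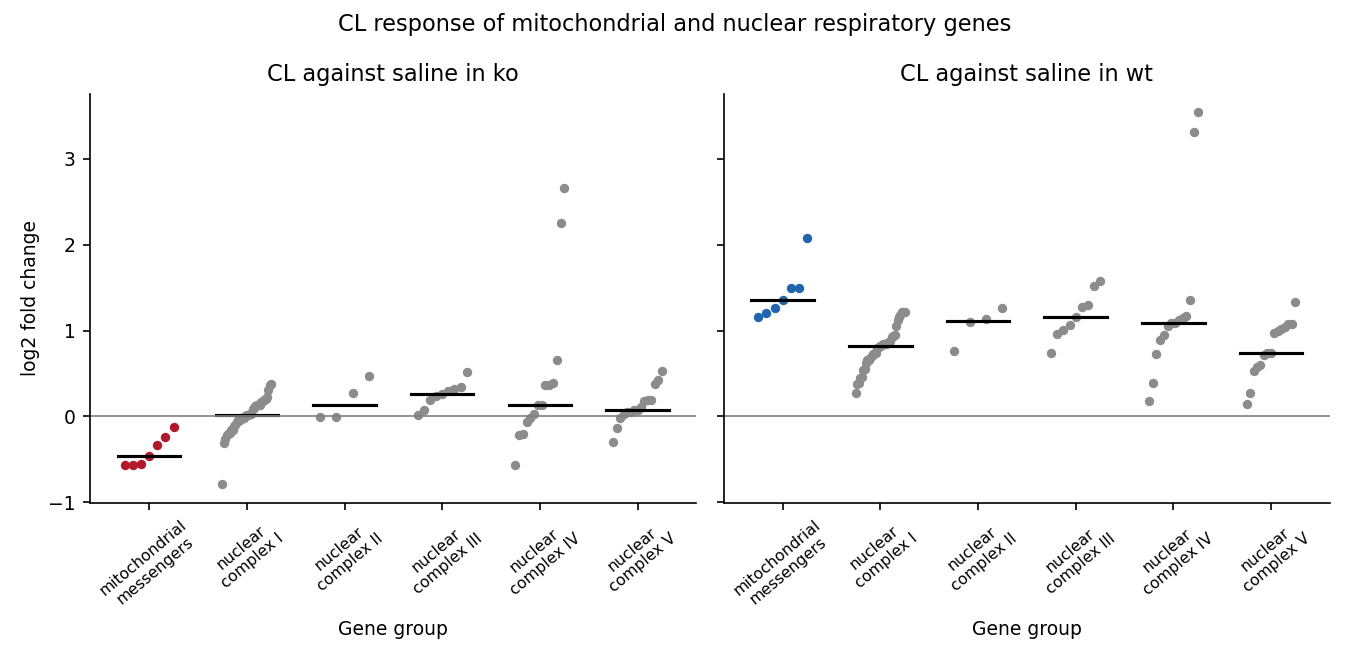
Log2 fold change of CL against saline in ko and in wt for the 7 mitochondrial messengers and for nuclear genes of complexes I to V; each dot is a gene and each line a median. In ko the messengers have a median of -0.46 and the complexes medians of 0.01 to 0.26, and in wt the messengers have a median of 1.35 and the complexes medians of 0.74 to 1.15. Cox6a2, with counts near 0, is left out.

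Each messenger was then tested against the trimmed mean change of the nuclear respiratory genes, by scaling the libraries to those genes alone. The p-values rest on the spread between libraries and not on the spread among those genes. In ko fat the messengers fell relative to that mean for 6 of 7, and 24.7% of all genes were called lower on this scale. mt-Nd5 fell by 0.68 ± 0.13 (adjusted p = 0.000577), mt-Cytb by 0.67 ± 0.10 (adjusted p = 4.01e-05), mt-Nd4 by 0.66 ± 0.13 (adjusted p = 0.000662) and mt-Nd2 by 0.58 ± 0.12 (adjusted p = 0.00099). mt-Nd6 fell by 0.45 ± 0.17 (adjusted p = 0.0446) and mt-Co1 by 0.34 ± 0.11 (adjusted p = 0.0169), and mt-Nd1 was at -0.24 ± 0.11 (adjusted p = 0.0919). The calls of the last 3 were not firm. mt-Nd6 lost its call without any single library other than ko saline 2 (log2 -0.59 to -0.25 over all libraries left out in turn), with the replicate block (-0.43, adjusted p = 0.0541) and with median ratios as the scale (-0.42, adjusted p = 0.0609). mt-Co1 lost it without ko CL 2 (-0.27, adjusted p = 0.0808) or ko saline 1 (-0.17, adjusted p = 0.157), and mt-Nd1 was called without ko saline 2 (-0.32, adjusted p = 0.0455). The median of the 7 was -0.58, beside -0.10 over all genes.

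In wt fat the messengers rose more than the trimmed mean of the nuclear respiratory genes for 5 of 7. Single nuclear genes, Uqcrfs1 and Cox7a1 among them, also rose more than that mean. On this scale 309 genes, 1.87% of all, were called higher and 13898 lower. Since the scale itself moved most genes down, 1.87% is not a background for the 5 calls. mt-Nd6 exceeded the trimmed mean by 1.12 ± 0.17 on the log2 scale (adjusted p = 1.73e-05) and mt-Co1 by 0.54 ± 0.11 (adjusted p = 0.000201). mt-Nd1 exceeded it by 0.54 ± 0.11 (adjusted p = 0.000259), mt-Nd2 by 0.40 ± 0.12 (adjusted p = 0.0051) and mt-Cytb by 0.31 ± 0.10 (adjusted p = 0.00767). mt-Nd5 had 0.26 ± 0.13 (adjusted p = 0.0809) and mt-Nd4 0.21 ± 0.13 (adjusted p = 0.136), and both were called without ko saline 1 (0.33 and 0.29, adjusted p = 0.00599 and 0.0138). mt-Cytb lost its call without wt saline 1 (0.27, adjusted p = 0.0508). The median of the 7 was 0.40, beside -0.96 over all genes.

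On the same scale all 7 were lower in ko CL than in wt CL, by 0.47 ± 0.11 for mt-Nd1 (adjusted p = 0.00094), 0.92 ± 0.10 for mt-Cytb (adjusted p = 4.28e-07) and 1.40 ± 0.17 for mt-Nd6 (adjusted p = 1.52e-06), with the other 4 between 0.76 and 0.81. Of all genes, 3.64% were called lower there, and 12468 genes were called higher. The median of the 7 was -0.78, beside 0.95 over all genes. The test of the difference between responses was called for all 7, with a median of -0.93, beside 0.82 over all genes. Here 2.25% of all genes were called lower, and 9901 genes were called higher. Since the scale moved most genes up in both comparisons, neither 3.64% nor 2.25% is a background for the 7 calls. Under saline the 7 lay between 0.06 and 0.31 and none was called (1 at an unadjusted p under 0.05, mt-Nd1), with 7.15% of all genes called in either direction. Counts of the 7 summed over those of the 78 nuclear genes gave 3.55, 2.96 and 3.39 in ko CL, 5.08, 4.05 and 4.36 in ko saline, 4.97, 4.93 and 5.41 in wt CL and 3.88, 4.49 and 4.29 in wt saline. ko CL lay below every other library, and wt CL overlapped ko saline but not wt saline.

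**Figure D4:**
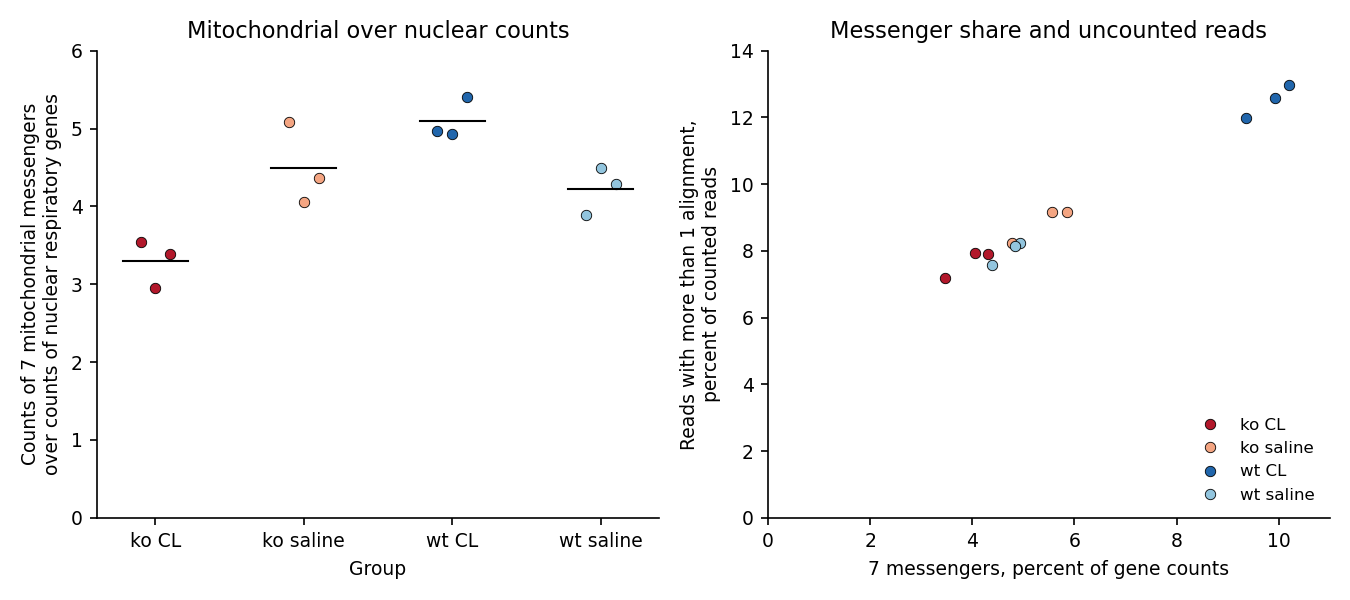
Left, the ratio of summed counts of the 7 messengers to summed counts of the 78 nuclear respiratory genes, by group, with dots for libraries. Right, the share of gene counts taken by the 7 messengers against the share of counted reads with more than 1 alignment, 1 dot per library. The ratio is lowest in ko CL, at 2.96 to 3.55, and the wt CL libraries have 11.98 to 12.96% of reads with more than 1 alignment.

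Group means of the reads left uncounted because they had more than 1 alignment stood in the same order as those of the summed share of gene counts taken by the 7 messengers, an order that mt-Nd1, mt-Nd4 and mt-Cytb did not have in CPM. They made up 7.67 ± 0.43% of all counted reads in ko CL, 8.86 ± 0.54% in ko saline, 12.5 ± 0.50% in wt CL and 7.99 ± 0.35% in wt saline (SD, n = 3). Which genes those reads came from was not tested.

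The make-up of the messenger pool was then compared, with the summed counts of the 7 as the library size. Shares of a pool are tied together, so a rise in the large share of mt-Co1 lowers the others, and the changes below are not separate results. How many of all genes were separated between groups on this scale was not counted. On this scale 92.8% of all genes were called in wt, 54.5% in ko and 5.5% under saline. Adjustment over all genes was therefore mildest in wt and strictest under saline, and calls of shares do not compare evenly between comparisons. mt-Co1 was 44.4, 43.6 and 43.2% of the pool in ko CL and 40.02, 40.1 and 39.4% in ko saline, against 44.0, 43.6 and 42.7% in wt CL and 38.6, 40.4 and 40.7% in wt saline. Its share was higher in every CL library than in every saline library, though its tests were not called (log2 0.13, adjusted p = 0.1146 in ko, and 0.12, adjusted p = 0.102 in wt). mt-Nd4 made up 6.24, 6.02 and 6.12% in ko CL and 7.30, 6.70 and 6.84% in ko saline, against 6.19, 6.25 and 6.49% in wt CL and 7.34, 7.15 and 7.44% in wt saline. It was lower in every CL library than in every saline library, with a called fall in wt of 0.21 ± 0.09 (adjusted p = 0.0308) and none in ko (adjusted p = 0.0952). mt-Nd5 was likewise lower in all CL libraries, at 8.87 to 9.73% in ko CL and 10.1 to 11.4% in ko saline, against 9.42 to 9.61% in wt CL and 10.3 to 11.2% in wt saline, and was not called.

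The shares of mt-Cytb and mt-Nd1 were called in ko and not in wt, and their responses were not called different between genotypes. In ko mt-Nd1 rose to 12.4, 13.8 and 13.1% of the pool in ko CL, against 11.1, 11.3 and 10.9% in ko saline, and mt-Cytb fell to 22.6, 22.7 and 22.7% in ko CL, against 24.7, 26.3 and 26.9% in ko saline. The tests gave 0.24 ± 0.09 for mt-Nd1 (adjusted p = 0.0266) and -0.20 ± 0.08 for mt-Cytb (adjusted p = 0.035), 2 calls where 54.5% of all genes were called. In wt mt-Nd1 held 10.2, 10.7 and 10.9% under CL and 10.1, 9.78 and 9.44% under saline, and mt-Cytb held 25.2, 24.8 and 25.3% under CL and 27.7, 27.2 and 26.6% under saline. The wt groups did not overlap for either, in the same directions as in ko. For mt-Nd1 they were barely apart, at 10.16% in wt CL 1 against 10.14% in wt saline 1. The wt tests gave 0.11 ± 0.09 for mt-Nd1 (adjusted p = 0.213) and -0.12 ± 0.08 for mt-Cytb (adjusted p = 0.152). The difference between the responses was 0.13 ± 0.12 for mt-Nd1 (adjusted p = 0.338) and -0.08 ± 0.11 for mt-Cytb (adjusted p = 0.473). The ratio of mt-Cytb to mt-Nd1 counts was 1.73 ± 0.091 in ko CL, 2.34 ± 0.13 in ko saline, 2.37 ± 0.094 in wt CL and 2.78 ± 0.041 in wt saline, and only ko saline and wt CL overlapped. Both ko calls were lost without ko CL 2, ko CL 3, ko saline 3 or wt saline 1 (log2 0.20 to 0.24 for mt-Nd1, adjusted p = 0.0532 to 0.0866, and -0.20 to -0.17 for mt-Cytb, adjusted p = 0.0562 to 0.101), and that of mt-Cytb also without wt saline 2 or wt saline 3 and with the replicate block (-0.20, adjusted p = 0.0589). The wt call of mt-Nd4 was lost without wt CL 1, wt CL 2 or any 1 of the wt saline libraries (-0.23 to -0.20, adjusted p = 0.0613 to 0.1003).

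mt-Nd6 stood out in wt CL. It had 0.189, 0.233 and 0.177 counts per 1000 counts of the other 6 in ko CL and 0.201, 0.175 and 0.204 in ko saline, against 0.337, 0.263 and 0.3198 in wt CL and 0.216, 0.165 and 0.1898 in wt saline. Each wt CL library was above every other library. Its share rose by 0.69 ± 0.17 in wt (adjusted p = 0.000725), where 92.8% of all genes were called on this scale, and was lower by 0.62 ± 0.17 in ko CL than in wt CL (adjusted p = 0.00184), where 92.7% were called. Between ko CL and wt CL the share of mt-Nd1 was also called, 0.31 ± 0.09 higher in ko CL (adjusted p = 0.00282). The response of the mt-Nd6 share differed between genotypes by -0.64 ± 0.24 (adjusted p = 0.0166), where 86.9% of all genes were called, and this call was lost without wt saline 2 (-0.55, adjusted p = 0.0522). Under saline no share was called between ko and wt, where 5.5% of all genes were called, and none had an unadjusted p under 0.05.

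**Figure D5:**
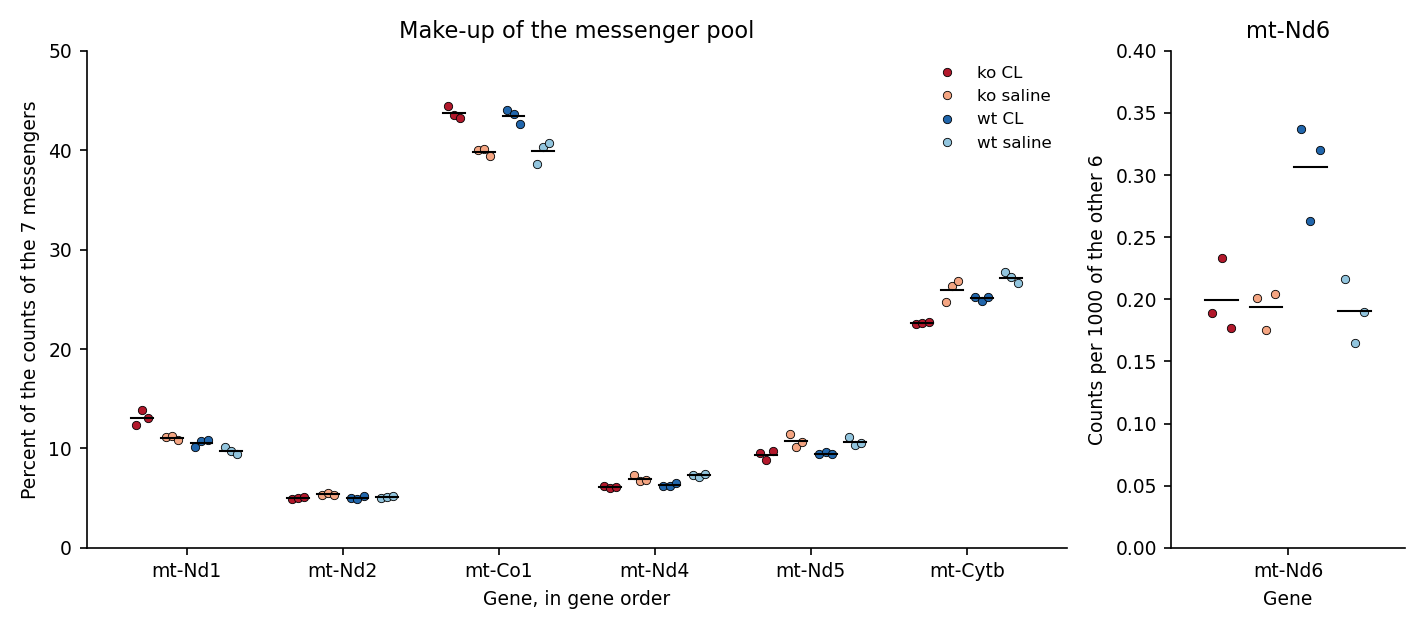
Share of the pooled counts of the 7 messengers held by 6 of them, in percent, and mt-Nd6 counts per 1000 counts of the other 6, for ko CL, ko saline, wt CL and wt saline. Dots are libraries and lines are means. mt-Cytb is lowest and mt-Nd1 highest in ko CL, and mt-Nd6 is highest in wt CL.

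The ribosomal RNAs of the same precursor were higher in ko saline than in wt saline, relative to the messenger pool too. mt-Rnr1, the small ribosomal RNA, was at 251, 327 and 299 CPM in ko CL and 363, 272 and 258 CPM in ko saline, against 863, 822 and 949 CPM in wt CL and 142, 201 and 193 CPM in wt saline. mt-Rnr2, the large one, averaged 329 ± 48.6 CPM in ko CL and 318 ± 52.6 CPM in ko saline, against 914 ± 51.2 CPM in wt CL and 217 ± 26.7 CPM in wt saline. In wt mt-Rnr1 rose 4.91-fold and mt-Rnr2 4.21-fold under CL, and in ko neither was called (-0.03 ± 0.15 and 0.05 ± 0.13, adjusted p = 0.898 and 0.787). In ko saline they were 1.66 and 1.47 times higher than in wt saline (adjusted p = 0.00845 and 0.0175). The saline call of mt-Rnr2 was lost without ko saline 1, ko saline 2 or wt saline 3 (0.43 to 0.56, adjusted p = 0.0535 to 0.0716), and both were lost without ko CL 2, wt saline 1 and wt saline 2 together (0.62 and 0.57, adjusted p = 0.0776 and 0.0801). Scaled to the messenger pool, the saline differences were 0.71 ± 0.13 for mt-Rnr1 (adjusted p = 0.0041) and 0.53 ± 0.14 for mt-Rnr2 (adjusted p = 0.0292). The mt-Rnr2 call on this scale was lost without ko saline 1, ko saline 2 or any 1 of the wt saline libraries (0.42 to 0.58, adjusted p = 0.0526 to 0.143). The 2 RNAs together made 1.68 ± 0.17 counts per 100 messenger counts in ko CL, 1.29 ± 0.20 in ko saline, 1.49 ± 0.042 in wt CL and 0.848 ± 0.060 in wt saline. The wt saline libraries lay below all others. How much ribosomal RNA a library keeps depends on how it was prepared, which the sources do not state, and the 22 transfer RNA rows held 870 counts in all.

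Nuclear genes that make and handle mitochondrial RNA were read from lists. Of 10 genes of mitochondrial DNA transcription, none was called in ko under CL (1 at an unadjusted p under 0.05, none by DESeq2), though 1 was called in some alternatives. Polrmt, the mitochondrial RNA polymerase, averaged 14.1 CPM in ko CL and 11 CPM in ko saline, against 16.5 CPM in wt CL and 12.7 CPM in wt saline, and was called higher in ko under CL without wt CL 3 (0.36, adjusted p = 0.0461). Tfam, which packages mitochondrial DNA and opens its promoters, averaged 28.6 CPM in ko CL and 31.8 CPM in ko saline, against 39.0 CPM in wt CL and 30.2 CPM in wt saline. It was called lower in ko under CL without ko CL 2 (-0.22, adjusted p = 0.0481) and with library size alone (-0.24, adjusted p = 0.0154). In wt 5 of the 10 rose, among them Tefm, an elongation factor, by 0.83 ± 0.11 (adjusted p = 6.97e-05), and Tfb2m, which helps the polymerase to start, by 0.62 ± 0.09 (adjusted p = 0.000169). Under CL 7 of the 10 were lower in ko than in wt, with a median log2 difference of -0.42. Of all genes, 19.6% were called higher in wt and 29.3% lower in ko CL than in wt CL. With library size alone 3 rose in wt and 3 were lower in ko CL than in wt CL, and the wt count was also 3 without ko CL 2, wt saline 1 and wt saline 2 together.

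Of 19 tested genes of mitochondrial RNA processing, stability and decay, 17 rose in wt (median 0.47), and in ko 3 rose and 3 fell (median 0.14). Of all genes, 19.6% were called higher in wt, and 27.2% were called higher and 27.5% lower in ko. Under CL 29.3% of all genes were called lower in ko than in wt. The number that rose in ko was 6 without ko CL 1 and 5 without ko saline 1, and the number that fell was 1 without ko CL 1, wt saline 2, wt saline 3 or any 1 of the wt CL libraries and 5 with library size alone. Lrpprc, which keeps mitochondrial messengers stable and polyadenylated, averaged 87.9 CPM in ko CL and 77.6 CPM in ko saline, against 143 CPM in wt CL and 83.9 CPM in wt saline, and rose by 0.77 ± 0.08 in wt (adjusted p = 1.16e-05). Ptcd2, which has been linked in mice to processing of the mt-Cytb transcript, rose in both genotypes, by 0.40 ± 0.05 in ko (adjusted p = 2.75e-05) and 0.80 ± 0.05 in wt (adjusted p = 7.33e-07). Supv3l1, the helicase of the mitochondrial RNA decay complex, had a response lower by 0.74 ± 0.09 in ko than in wt (adjusted p = 2.67e-05). Under CL 17 of the 19 were lower in ko than in wt, and with library size alone 5 were lower and 1 higher, with 10 that rose in wt. Of 12 translation factors 11 rose in wt and 3 in ko, the 3 including Oxa1l, which inserts mitochondrial proteins into the inner membrane, by 0.36 ± 0.08 (adjusted p = 0.00204). The number that rose in ko was 7 without ko CL 1 and 1 without ko saline 3 or with library size alone. Ptcd3, a protein of the small mitochondrial ribosomal subunit, rose by 1.27 ± 0.09 in wt (adjusted p = 1.49e-06).

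Of 12 genes of mitochondrial DNA replication and nucleotide supply, 4 rose and 4 fell in ko under CL, beside the 27.2% and 27.5% of all genes. The number that rose was 2 without ko CL 1, ko saline 1 or ko saline 2, and the number that fell was 2 without ko CL 1, 1 with only the ko libraries in the fit and 7 with library size alone. Rrm2b, a ribonucleotide reductase subunit that supplies nucleotides outside the cell cycle, fell to 27.4 CPM in ko CL, against 42.0 CPM in ko saline (log2 -0.62 ± 0.07, adjusted p = 6.28e-06). Rrm2b averaged 32.1 CPM in wt CL and 35.0 CPM in wt saline. In wt 3 of the 12 rose and 1 fell, and the count of 3 was 0 or 1 under most alternatives, with 0 without wt CL 3 or wt saline 1 and 1 with DESeq2. Of all genes, 19.6% were called higher in wt and 17.1% lower. Ssbp1, which binds single-stranded mitochondrial DNA, rose by 0.28 ± 0.08 in wt (adjusted p = 0.0152). It lost its call without wt CL 3, wt saline 1 or wt saline 3 (0.21 to 0.26, adjusted p = 0.0532 to 0.0751), without ko CL 2, wt saline 1 and wt saline 2 together (0.31, adjusted p = 0.134) and with library size alone (-0.040). Of 7 regulators of mitochondrial biogenesis, 4 rose in wt, against 1 with library size alone or without ko CL 2, wt saline 1 and wt saline 2 together, and 3 rose and 1 fell in ko. Gabpa, a transcription factor of respiratory genes, rose by 0.31 ± 0.07 in wt (adjusted p = 0.00308), a call lost with library size alone (-0.0068) and without the 3 libraries together (0.34, adjusted p = 0.0538). Esrra, a nuclear receptor that drives respiratory genes, rose by 0.62 ± 0.09 in ko (adjusted p = 8.36e-05) and 0.64 ± 0.09 in wt (adjusted p = 0.000159). Ppargc1a, its coactivator, averaged 7.44 CPM in ko CL and 10.9 CPM in ko saline, against 19.8 CPM in wt CL and 12.1 CPM in wt saline, and its response differed between genotypes by -1.27 ± 0.25 (adjusted p = 0.00108).

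The 7 messengers varied together over the 12 libraries, with Pearson correlations of log2 CPM of 0.925 to 0.997 between pairs. These are descriptions over libraries that fall into 4 groups, with wt CL apart. The nuclear genes most like the mean of the 7 were Acat2 (r = 0.992), an acetyl-CoA acetyltransferase, Apool (0.988), a protein of inner membrane folds, Zwint (0.988), a kinetochore protein, Foxred1 (0.987), a complex I assembly factor, and Etfa (0.987), which passes electrons from fat oxidation to the chain. Acat2 averaged 85.5 CPM in ko CL and 118.5 CPM in ko saline, against 332.3 CPM in wt CL and 110.6 CPM in wt saline. Among the nuclear respiratory genes Ndufs4 (0.986), Atp5h (0.984) and Ndufa4 (0.981) were most like the 7, and the 78 ranged from -0.63 to 0.986 with a median of 0.902.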

How the data were processed

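RNA of perigonadal white fat was sequenced in 12 libraries, each a pool of 2 mice, in 4 groups of 3 taken from the sample titles. The deposited files hold raw counts per Ensembl gene. The authors used STAR, HTSeq and build GRCm38, per the submitters' processing notes. The sources used here give no versions and no read length, and the names of the deposited files state reverse-strand counting. Of the 53379 identifiers, 53274 matched GENCODE M21 and 105 did not. Summary lines for unassigned reads held 12.5 to 17.2% of counted reads and were left out. Libraries of a group differed beyond sampling noise (chi-square per degree of freedom 6.96 to 55.5 in 12 pairs).

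Counts were tested with edgeR 4.0.16 (limma 3.58.1, R 4.3.3) by the quasi-likelihood test, with filterByExpr at a minimum count of 10, TMM, 1 mean per group and no covariate, which left 16554 genes and 8 residual degrees of freedom (biological coefficient of variation 11.5%). Further fits took library sizes from TMM over the nuclear respiratory genes and from the summed counts of the 7 messengers. P-values were adjusted by Benjamini-Hochberg over all genes and called at 0.05, and SE is the absolute log2 fold change divided by the root of its F statistic. The spread behind a p-value is that between pools of 2 mice. The procedure was tested on simulated data in which few genes, or none, changed, and only in wt CL. That test does not cover the scaling where many genes change, as they did here. Nuclear copies were found with BLAST 2.17.0 against GENCODE M21 transcripts at 90% identity or more. Alternatives were DESeq2 1.42.0, library size alone, nuclear genes only for scaling, no filter, only the groups compared, a replicate block and libraries left out.

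The members and gene lists were chosen with earlier results of these data known. Named genes are the members, the other mitochondrial RNAs, the 2 genes of each list with the smallest p in either CL comparison or in their difference, of which a part is printed, the first markers of each list, and the 5 nuclear and 3 respiratory genes most correlated with the members.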

Additional observations from a re-analysis of the deposited data

Results flagged for a closer look

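For each of the 7 messengers the response to CL differed between genotypes by the test of the difference itself, as the ko response minus the wt response on the log2 scale. The differences were -1.61 for mt-Nd1, -1.82 for mt-Nd2, -1.72 for mt-Nd4, -1.78 for mt-Nd5, -2.41 for mt-Nd6, -1.73 for mt-Co1 and -1.82 for mt-Cytb. The response of the mt-Nd6 share of the messenger pool also differed, by -0.64. Outside the gene rows, reads with more than 1 alignment reached 12.5% of counted reads in wt CL, above the 7.99% in wt saline.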

How the results depend on the processing

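The 4 falls in ko fat, the 7 increases in wt fat, the 7 lower levels of ko CL against wt CL and the 7 differences between responses kept their direction and their call under every alternative run. Without 1 library at a time 4 to 6 messengers were called in ko, and relative to the nuclear respiratory genes 4 to 7 were called in ko and 4 to 7 in wt. Calls by share of the pool were few, at 0 to 3 in ko, 1 to 2 in wt and 0 to 1 for the difference. With library size alone as the scale the median gene moved to -0.33 in wt, 0.39 for ko CL against wt CL, 0.15 under saline, 0.20 for the difference and -0.10 in ko. Genes called in wt were then 9377 (1329 higher, 8048 lower), against 6085 (3249 and 2836) with TMM, and under saline 4239 (3733 and 506), against 2391 (1323 and 1068). For ko CL against wt CL 8667 were higher and 2237 lower, against 4561 and 4847, and for the difference 5386 and 2267, against 3607 and 3903. Without ko CL 2, wt saline 1 and wt saline 2 together, 3175 genes were called in wt and 1269 under saline, with 1065 to 2996 under saline without 1 library. Signs that turned were all of uncalled values or arose with library size alone. With library size alone they were mt-Rnr2 in ko (-0.038), Ssbp1 (-0.040) and Gabpa (-0.0068) in wt, and mt-Nd4 (0.12) and mt-Cytb (0.13) under saline, where 1 messenger was called. Without the 3 libraries together they were mt-Rnr2 in ko (-0.076) and mt-Co1 under saline (-0.046). Without 1 library the ko values spanned -0.15 to 0.11 for mt-Rnr1, -0.096 to 0.14 for mt-Rnr2 and -0.083 to 0.13 for the mt-Nd6 share. The saline values spanned -0.14 to 0.087 for mt-Nd4, -0.060 to 0.19 for mt-Nd5, -0.011 to 0.23 for mt-Nd6, -0.047 to 0.13 for mt-Co1 and -0.079 to 0.058 for mt-Cytb, and relative to nuclear genes -0.10 to 0.18, -0.027 to 0.28 and -0.021 to 0.14 for mt-Nd4, mt-Nd5 and mt-Cytb. The causes were not tested. Replicate numbers did not pair the samples (correlations of same-numbered libraries -0.36 to 0.18), and with the replicate block 8697, 5709, 9107, 2088 and 7147 genes were called in ko, in wt, for ko against wt under CL and under saline, and for the difference, with 1 call by share of the pool in ko, against 2. The limits are 3 pools a group, the unstated library preparation, the low counts of mt-Nd6 and the uncounted reads of genes with nuclear copies.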
